A study of Homo sapiens with 10 samples.

Results

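Complex I, or NADH:ubiquinone oxidoreductase, is the largest enzyme of the respiratory chain, and its nuclear-encoded subunits are described here gene by gene and module by module. The members are 36 genes, taken from a list of subunit symbols and matched through GENCODE 29 to the 63677 Ensembl gene identifiers that each file holds. Of them, 6 encode core and 30 encode accessory subunits. By the place of the protein in the enzyme, 10 belong to the N module, 5 to the Q module, 9 to the proximal and 11 to the distal part of the P module, and the acyl carrier protein NDUFAB1 was kept apart. All 36 were found and all 36 passed the filter on low counts.

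The libraries come from RS4;11, an established human line of acute lymphoblastic leukemia arisen from B-cell precursors. Exposure to rising concentrations of the BCL-2 inhibitor venetoclax (VEN) gave 5 VENins lines, which stayed under VEN in culture, while 5 VENsens lines were carried alongside with the solvent DMSO, and VEN was washed out before measurements. All 10 lines descend from 1 parental cell line and gave 1 poly(A) RNA library each, so the spread within a group is that between lines of one cell line and not between leukemias. The comparison asks how resistant lines differ from their sensitive counterparts. The files hold 38491516 to 52960365 reads per library, of which 20631907 to 28323643 were counted on genes.

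B-cell precursor identity was checked on marker genes, with levels in CPM, the read count of a gene scaled to a common library total by TMM factors. Among B-lineage markers, IGLL1, a surrogate light chain gene, was at a mean of 723 CPM over the 10 libraries. PAX5, a transcription factor of B-cell identity, averaged 783 ± 42.9 CPM over the VENsens and 631 ± 34.7 CPM over the VENins lines (SD, n = 5 per group) and passed the test (log2 fold change -0.31, standard error 0.05, adjusted p = 0.0272 in edgeR's quasi-likelihood test with Benjamini-Hochberg adjustment over all tested genes, higher in 0 of 5 line pairs). Markers of this lineage lay on both sides. At an unadjusted p under 0.05 in that test CD79B (0.24), IGLL1 (0.17) and VPREB1 (0.14) were higher and PAX5 and RAG1 (-0.32) lower, values being log2 fold changes. Summed over the 4 of 5 T-cell markers that were found the level was 0.692 to 1.08 CPM, most of it CD3E, with CD3D, CD3G and CD2 under 1 CPM in every library. The 5 myeloid markers summed to 0.658 to 1.32 CPM, with CD14 the most abundant and all 5 under 1 CPM in every library.

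Complex I sits in the inner mitochondrial membrane, takes electrons from NADH, passes them over a flavin and a row of iron-sulfur clusters to ubiquinone, and uses the energy to pump protons. The N module oxidises NADH, the Q module reduces ubiquinone, and the P module is the membrane arm that moves the protons, its proximal part next to the Q module and its distal part at the far end. Core subunits, among them those that carry the cofactors or the proton channels, have bacterial counterparts. Accessory subunits surround the core and serve assembly and stability. The core subunits of the membrane arm are encoded by mitochondrial DNA, so that all P module members described here are accessory. In dividing cells the enzyme also regenerates NAD+, which the synthesis of aspartate and nucleotides draws on.

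Promoters are shown first, because most members lay on the same side of the comparison and the letters in front of their starts can be set side by side. RefSeq promoters (GRCh38.p14, 250 bases before to 50 after the start) covered 32 of the 36 members. NDUFS5, NDUFC2, NDUFB5 and NDUFB9 had no entry. The 32 promoters were searched on both strands for a short motif of NRF1, an activator of many genes for respiratory chain subunits (GCGCANGC), for an ETS site as bound by GABP (CCGGAAGT), for a YY1 site (AAGATGGC) and for the CCAAT box bound by NFY (CCAAT). The NRF1 motif was present in 11 of the 32 member promoters (34.4%) and in 11.98% of all 35116 promoters of the same length. These 35116 are all entries of that length, of expressed genes or not, while each member was searched in a single entry. The YY1 site was found in 6 (18.8%, against 2.89% of all), the ETS site in 2 (6.25%, against 4.14%) and the CCAAT box in 8 (25%, against 34.6%). None of the 4 motifs was found in 11 of the 32 member promoters and in 53.4% of all promoters. NRF1 motifs overlapped one another in NDUFA3, NDUFA8 and NDUFB4, while matches of different motifs did not overlap. A match describes these letters and does not show that a factor binds there.

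The NRF1 motif nearest to the start, among those that lie wholly before it, is printed for the 11 promoters that hold one. Each stretch of 30 bases is given 5′ to 3′ on the strand of the gene, with the matched bases in capitals; where the match is on the opposite strand the capitals read as its reverse complement.
NDUFV2 (chr18:9102657-9102686, plus strand): gggtcgggagcGCGCACGCtgtgcgccctg
NDUFS6 (chr5:1801350-1801379, plus strand): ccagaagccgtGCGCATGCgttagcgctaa
NDUFA6 (chr22:42090920-42090949, minus strand): tctgtagatgaGCATGCGCagcacccaccg
NDUFA12 (chr12:95003795-95003824, minus strand): gacctagctctGCGCACGCgcagagccacc
NDUFS7 (chr19:1383823-1383852, plus strand): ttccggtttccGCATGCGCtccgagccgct
NDUFA9 (chr12:4649025-4649054, plus strand): tcttggttagcGCTTGCGCagacaggcgag
NDUFA3 (chr19:54102771-54102800, plus strand): tgtgctccaggGCGCACGCgcagccctggg
NDUFA8 (chr9:122159821-122159850, minus strand): ttcttggtattGCGCACGCtccctcgctcg
NDUFA11 (chr19:5903868-5903897, minus strand): cggtccccggcGCGTGCGCgcgatccatgt
NDUFB4 (chr3:120596317-120596346, plus strand): gcctcagaatcGCGCAGGCgcaattgtgcc
NDUFAB1 (chr16:23596342-23596371, minus strand): ccgtgtgcgtcGCCTGCGCgccgccggaaa

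By module, the NRF1 motif was found in 4 N, 2 Q, 3 proximal P and 1 distal P member and in NDUFAB1. NDUFS5 and NDUFC2 of the proximal and NDUFB5 and NDUFB9 of the distal part had no promoter to search. The YY1 matches lay on the gene strand just after the start in all 6 promoters that hold one, none of them of a distal P member. The searched motif itself includes ATG, the letters of a start codon.
NDUFS4 (chr5:53560649-53560678, plus strand): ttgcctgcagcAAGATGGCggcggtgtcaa
NDUFA6 (chr22:42090729-42090758, minus strand): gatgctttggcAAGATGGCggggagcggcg
NDUFA7 (chr19:8321343-8321372, minus strand): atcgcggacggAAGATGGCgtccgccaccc
NDUFS7 (chr19:1383913-1383942, plus strand): aggccgaggccAAGATGGCggtgctgtcag
NDUFA9 (chr12:4649113-4649142, plus strand): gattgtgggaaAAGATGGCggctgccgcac
NDUFA3 (chr19:54102865-54102894, plus strand): ccgcggagacaAAGATGGCtgcgagtaagt

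Longer stretches of 120 bases follow for NDUFA12, NDUFS8 and NDUFB4, which are among the members described in full below and whose stretches lie in no annotated exon and hold a match. The capitals mark a CCAAT box and an NRF1 motif in NDUFA12, CCAAT boxes in NDUFS8 and an NRF1 motif in NDUFB4.
NDUFA12 (chr12:95003771-95003890, minus strand): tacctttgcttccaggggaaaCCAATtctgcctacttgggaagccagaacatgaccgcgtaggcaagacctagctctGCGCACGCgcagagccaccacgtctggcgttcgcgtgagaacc
NDUFS8 (chr11:68030497-68030616, plus strand): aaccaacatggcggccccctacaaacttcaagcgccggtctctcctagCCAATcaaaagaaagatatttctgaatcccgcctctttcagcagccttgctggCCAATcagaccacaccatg
NDUFB4 (chr3:120596189-120596308, plus strand): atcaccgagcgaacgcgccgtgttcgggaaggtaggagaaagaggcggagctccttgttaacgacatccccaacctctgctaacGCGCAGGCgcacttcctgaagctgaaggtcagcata

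The genes of the factors themselves were all tested. The 7 genes NRF1, GABPA, GABPB1, YY1, NFYA, NFYB and NFYC had log2 fold changes between -0.03 and 0.11, and their smallest adjusted p in edgeR's test was 0.335.

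Complex I subunit transcripts were slightly higher in VENins lines for most members. Summed over the 36 members, the level was 1942, 1745, 2020.1, 1909 and 1947 CPM in VENsens lines 1 to 5 and 2035, 2163, 2044, 2048 and 2079 CPM in VENins lines 1 to 5. VENsens line 2 was the lowest and VENins line 2 the highest, and the groups did not overlap, although VENsens line 3 came close to VENins line 1. Their averages were 1913 ± 102 CPM for VENsens and 2074 ± 52.5 CPM for VENins (SD, n = 5 per group). With every member given equal weight, as the mean of log2 CPM after each member's own mean was subtracted, the groups did overlap. These means were -0.02, -0.20, 0.02, -0.07 and -0.06 in VENsens and 0.05, 0.13, 0.02, 0.05 and 0.07 in VENins lines, and VENsens line 3 was level with VENins line 3. In RNA of whole cultures, less RNA per cell and fewer cells that carry the transcript cannot be told apart.

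In edgeR's quasi-likelihood test with Benjamini-Hochberg adjustment over 16756 genes, 33 genes (0.197%) and 0 of the 36 members had an adjusted p under 0.05. The smallest adjusted p of a member was 0.139 (NDUFB2). At an unadjusted p under 0.05 in that test, 16 members were higher in VENins lines and 0 were lower, where 7.79% of all tested genes were higher and 8.38% lower. DESeq2 with the line number in its model called 0 members and 217 of all 16756 genes, and 13 members and 5.65% of all tested genes were higher at an unadjusted p under 0.05. Without the line number it called 6 members and 739 of all 16756 genes. EdgeR called 3 members when no filter on low counts was applied, where it called 664 of all 32884 genes. Without line pair 2, only 5 members had an unadjusted p under 0.05, where 3.98% of all tested genes were higher at that level. Over all tested genes the number called was 57, 6, 17, 331 and 9 without line pairs 1 to 5 in turn.

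Read by direction alone, 30 of the 36 members had a log2 fold change above 0, against 51.1% of all tested genes, and the number was again 30 with RLE factors or with library size alone as the scaling. Their median log2 fold change was 0.13, with a range from -0.12 to 0.25, and the median over all tested genes was 0.0035. In 12 members the VENins line was higher in all 5 pairs of lines with the same number, as in 7.61% of all tested genes. For 6 members (NDUFA12, NDUFS3, NDUFA1, NDUFC1, NDUFB2 and NDUFB4) every VENins library lay above every VENsens library, as it did for 2.36% of all tested genes, and for 0 members every VENins library lay below, against 2.3%. Without line pair 3 or line pair 5 the groups of 4 separated in this way for 11 members, and the share of all tested genes was then 4.74% or 5.54%. Without pair 2 the number was 9 (3.26% of all tested genes), and with scaling by library size alone it was 4 (1.99%).

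**Figure D1:**
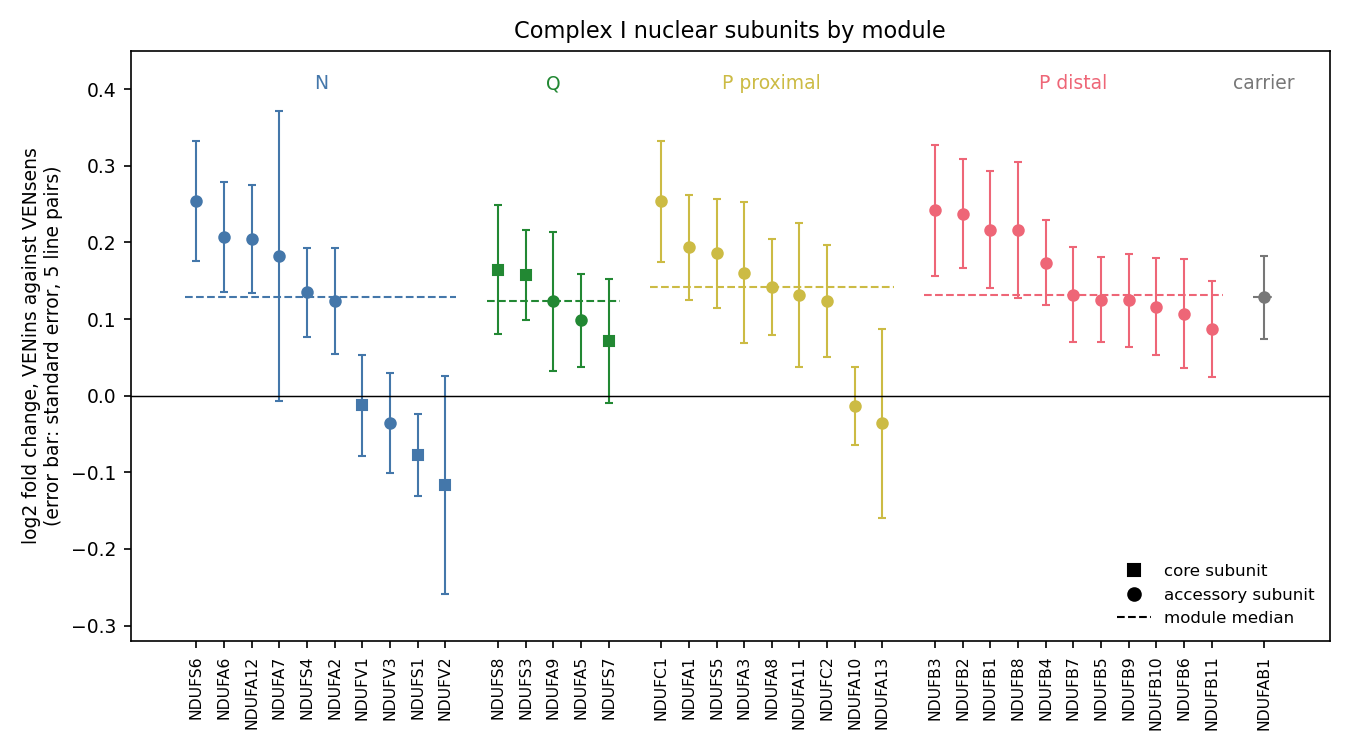
Log2 fold change of VENins against VENsens lines for each of the 36 members, by module, with the standard error from edgeR as bars (5 line pairs). Dashed lines are module medians, between 0.12 and 0.14 in the 4 modules; 6 members lie below 0, 4 of them in the N module.

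**Figure D2:**
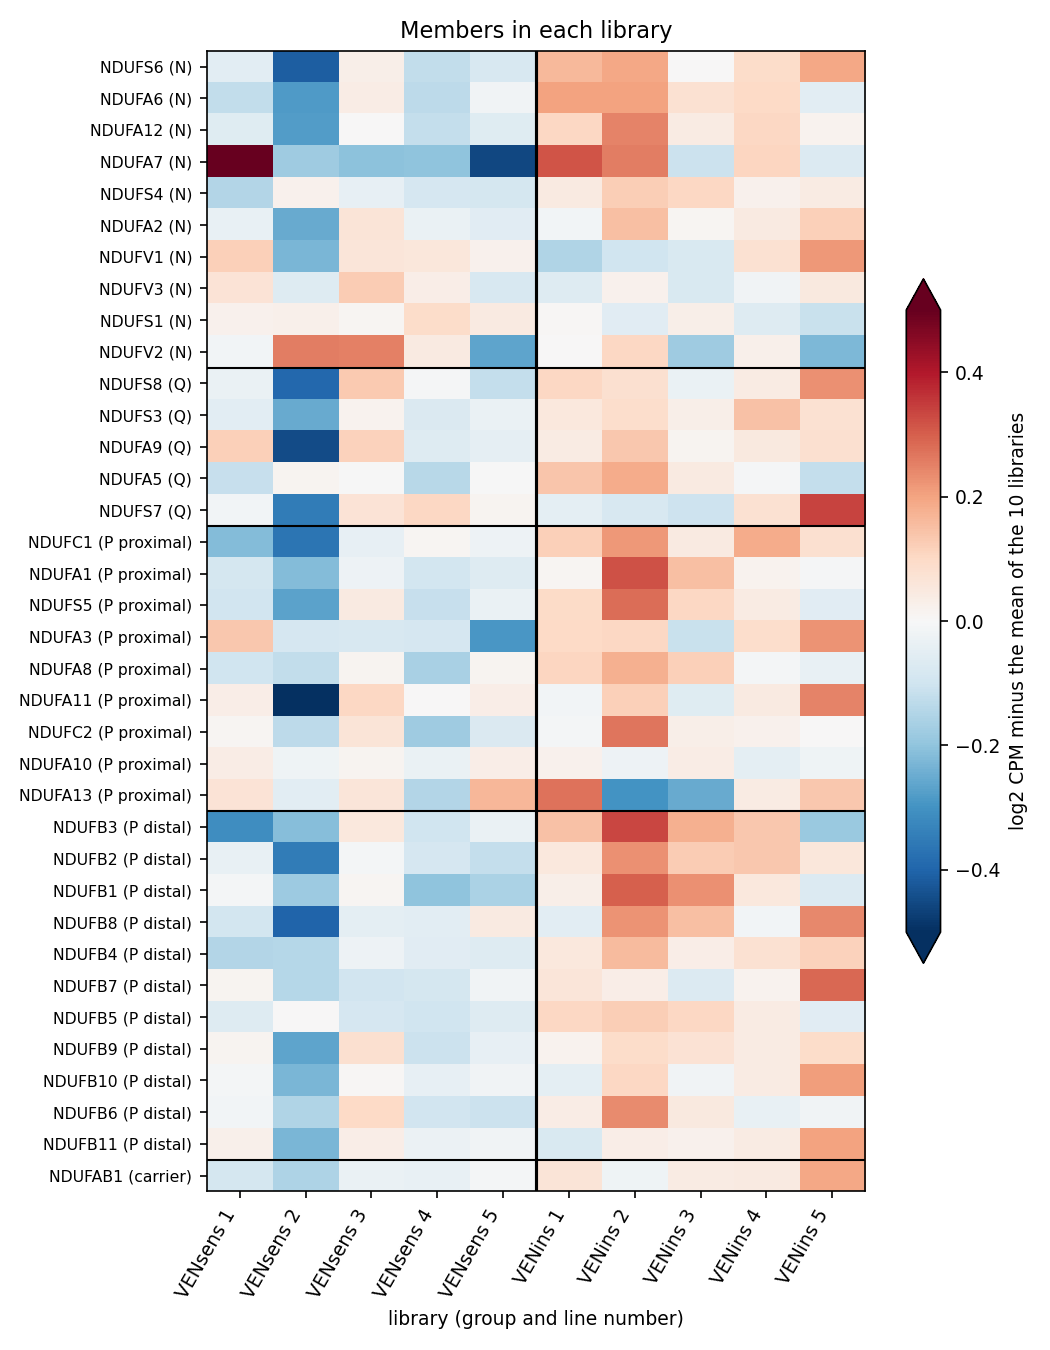
Log2 CPM of each member in each library after subtraction of the member's mean over the 10 libraries; rows are members by module and columns are libraries by group and line. Blue in the column of VENsens line 2 and red in that of VENins line 2 run through many rows, while NDUFS1 and NDUFV2 are not low in VENsens line 2.

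VENsens line 2 and VENins line 2 stood apart in these values. Line pairs join lines by their number alone. Deviations of such lines from their group means correlated only between -0.10 and 0.03. VENsens line 2 was the lowest of all 10 libraries for 21 of the 36 members, and VENins line 2 was the highest for 18, with VENins line 5 the highest for 11. The median difference over the members between VENins and VENsens lines of the same number was 0.05, 0.35, 0.02, 0.12 and 0.13 on the log2 scale in pairs 1 to 5. Pair 2 differed most and pair 3 least, and in pairs 1 to 5 there were 24, 32, 20, 31 and 28 members higher. VENsens line 2 also had the fewest reads of the 10 libraries, and the part that depth plays in its values was not tested.

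Transcript levels of different subunits were compared per length, as CPM per 1000 bases of transcript. Over the 10 libraries the members ran from 1.86 (NDUFA7) to 301 (NDUFS5), with a median of 52.8 and quartiles of 22.6 and 79.3. After NDUFS5 came NDUFB9 (165), NDUFB4 (119.5), NDUFA1 (117), NDUFB10 (114) and NDUFV1 (104), of which NDUFB4, NDUFA1 and NDUFB10 lie close to one another. Module medians were 44.1 for N, 38.7 for Q, 31.4 for proximal P and 67.0 for distal P members. Although the proteins are present in the enzyme at equal numbers apart from NDUFAB1, their counted transcripts per length differed widely. The 4 members under 5 are NDUFA7, NDUFA9, NDUFV2 and NDUFA13, and for each of them the low value is uncertain. NDUFA7, NDUFA13 and NDUFV2 share much of their transcript with overlapping genes of other names (75.9%, 44.2% and 82.9% of the transcript). NDUFV2 also shares it with a processed pseudogene, and the annotated NDUFA9 transcript used for the length has 8363 bases. The same holds for NDUFS1, with 11819 bases and 9.16 CPM per 1000 bases.

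**Figure D3:**
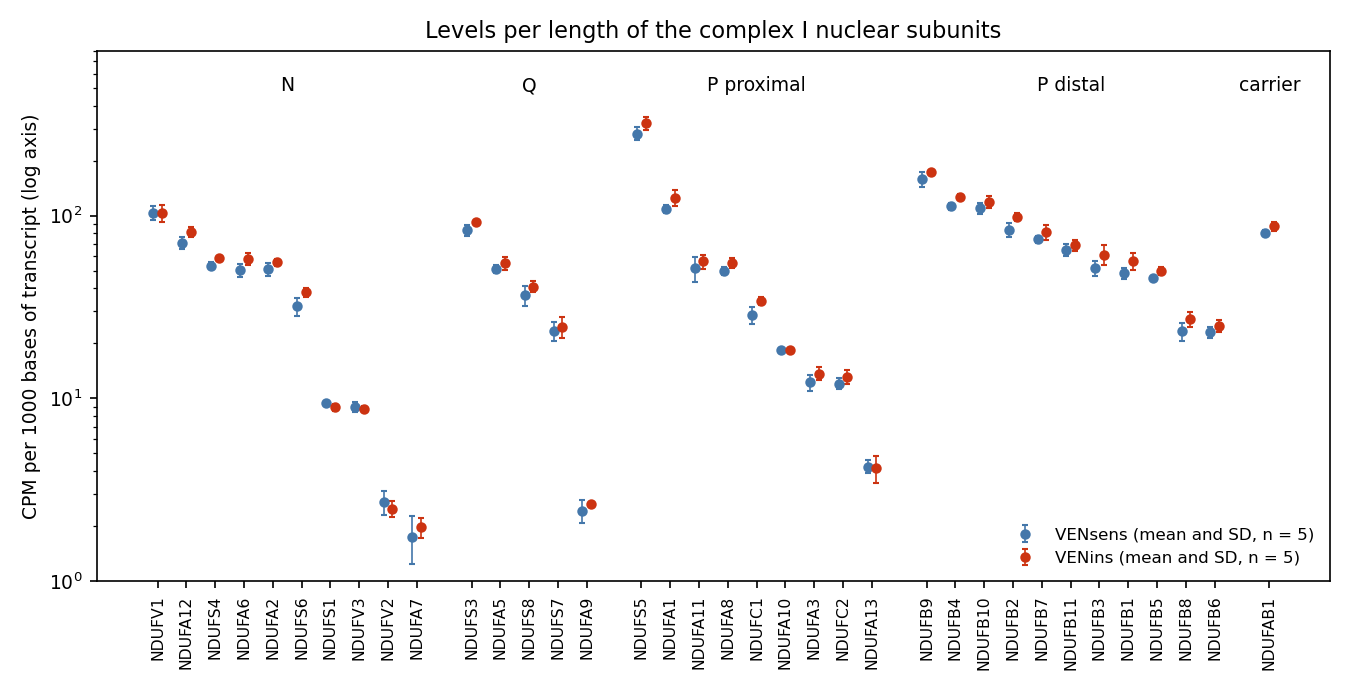
Mean CPM per 1000 bases of transcript of each member in VENsens and VENins lines (bars are SD, n = 5 each; log axis), ordered within modules. The spread between members, from 1.86 to 301 over all libraries, is far wider than the difference between the groups for any of them.

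The N module holds 3 of the core members, all with a log2 fold change below 0. Positions are those of GENCODE 29 on GRCh38. NDUFV1 (ENSG00000167792, chromosome 11, 67605653 to 67612554), which binds NADH and the flavin, was at 179, 141, 172, 171 and 167 CPM in VENsens lines 1 to 5 and at 148, 154, 156, 174 and 192 CPM in VENins lines 1 to 5. The groups overlapped over nearly their whole range, with VENsens line 2 the lowest and VENins line 5 the highest (log2 fold change -0.01, standard error 0.07, adjusted p = 0.951 in edgeR's test, higher in 3 of 5 line pairs). NDUFS1 (ENSG00000023228, chromosome 2, 206114817 to 206159603), the largest core subunit, which carries several iron-sulfur clusters, was at 109.9, 110.1, 109, 115 and 111 CPM in VENsens and at 109, 104, 110.4, 103 and 100.2 CPM in VENins lines. Its levels were nearly flat, and 4 of the 5 VENins lines lay below the VENsens line of the same number (log2 fold change -0.08, standard error 0.05, adjusted p = 0.502 in edgeR's test, higher in 1 of 5 line pairs). After trends with transcript length and GC content were taken out, the log2 fold change of NDUFS1 was 0.019. That of NDUFV1 was 0.052 without line pair 1 and 0.018 without line pair 3.

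NDUFV2 (ENSG00000178127, chromosome 18, 9102630 to 9134345), which carries the iron-sulfur cluster beside the flavin, was counted at 2.37, 2.86, 2.85, 2.47 and 1.99 CPM in VENsens and at 2.40, 2.57, 2.12, 2.44 and 2.05 CPM in VENins lines. The groups overlapped, at a level that rests on 47 to 81 reads per library (log2 fold change -0.12, standard error 0.14, adjusted p = 0.738 in edgeR's test, higher in 2 of 5 line pairs). The gene had 579 reads over the 10 libraries, while its processed pseudogene NDUFV2P1 on chromosome 19, singled out after its counts were seen, had 25650, or 44.3 times as many. 74.6% of the NDUFV2 transcript is matched by NDUFV2P1 at 95% identity or more, so reads of the gene and of the copy cannot be told apart in the counts. The overlapping gene AP005263.1 on chromosome 18 matches 82.9% of the NDUFV2 transcript and had 0 reads over the 10 libraries. NDUFV2P1 was at 96.5, 90.7, 108, 97.6 and 99.8 CPM in VENsens and at 109, 126, 122, 113 and 102 CPM in VENins lines. VENsens line 3 reached the range of the VENins lines, and the other 4 VENsens lines lay below all of it (log2 fold change 0.22, standard error 0.06, adjusted p = 0.130 in edgeR's test). Counted together, gene and pseudogene stood at 101 ± 6.24 CPM over the VENsens and 117 ± 10.05 CPM over the VENins lines (SD, n = 5 per group). The log2 fold change was then 0.21 (adjusted p = 0.139 in edgeR's test), against -0.12 for the gene alone, whose adjusted p was between 0.566 and 0.955 under the other alternatives that gave one. The direction of this core member depends on how reads of the copy are treated.

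Among the accessory N members the values lay mostly on the other side. NDUFS6 (ENSG00000145494, chromosome 5, 1801400 to 1816605), a zinc-binding subunit at the junction of the N and Q modules whose promoter holds an NRF1 motif, was at 36.2, 28.2, 38.3, 34.5 and 35.5 CPM in VENsens and at 42.0, 42.9, 37.6, 40.1 and 43.0 CPM in VENins lines. Only VENsens line 3 reached into the VENins range, and VENsens line 2 was well below the rest (log2 fold change 0.25, standard error 0.08, adjusted p = 0.143 in edgeR's test, higher in 4 of 5 line pairs). NDUFA12 (ENSG00000184752, chromosome 12, 94897055 to 95003770), which takes the place of the assembly factor NDUFAF2 late in assembly, was at 46.3, 39.7, 48.3, 44.3 and 46.3 CPM in VENsens and at 51.8, 57.2, 49.6, 51.9 and 48.8 CPM in VENins lines. The groups did not overlap, but VENsens line 3 and VENins line 5 nearly touched (log2 fold change 0.20, standard error 0.07, adjusted p = 0.180 in edgeR's test, higher in 5 of 5 line pairs). Without line pair 2 the log2 fold change of NDUFA12 was 0.13. Of the other 5, NDUFA6, a small protein of the LYR family that binds NDUFAB1, had a log2 fold change of 0.21, NDUFS4, which sits between the N and Q modules, one of 0.13, and NDUFA2, with a thioredoxin-like fold, one of 0.12. NDUFA7, which averaged 1.05 ± 0.304 CPM over the VENsens and 1.18 ± 0.153 CPM over the VENins lines (SD, n = 5 per group), rests on 20 to 38 reads per library, and its log2 fold change was 0.18 with a standard error of 0.19. NDUFV3, a small subunit of the part that binds NADH, had a value of -0.04 on that scale (standard error 0.07). In all, 6 of the 10 N members were higher, 4 of them at an unadjusted p under 0.05 in edgeR's test (2 without line pair 2), with a median log2 fold change of 0.13.

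All 5 Q module members had a log2 fold change above 0. NDUFS3 (ENSG00000213619, chromosome 11, 47565336 to 47584562), a core subunit without a cofactor that anchors the module early in assembly, was at 80.8, 70.3, 84.8, 79.7 and 81.8 CPM in VENsens and at 87.0, 89.1, 85.6, 92.8 and 88.3 CPM in VENins lines. No VENsens line reached the lowest VENins line, with a margin smaller than the spread within either group (log2 fold change 0.16, standard error 0.06, adjusted p = 0.208 in edgeR's test, higher in 5 of 5 line pairs). PTPMT1, CELF1 and KBTBD4 overlap 22.4% of the exon bases of NDUFS3. NDUFS8 (ENSG00000110717, chromosome 11, 68030617 to 68036644), a core subunit whose iron-sulfur clusters lead to NDUFS7 and whose promoter holds CCAAT boxes, was at 29.8, 23.2, 33.4, 30.3 and 28.1 CPM in VENsens and at 32.7, 32.2, 29.7, 31.4 and 35.7 CPM in VENins lines. Here VENsens line 3 was above 4 of the 5 VENins lines, and VENsens line 2 again the lowest (log2 fold change 0.16, standard error 0.08, adjusted p = 0.350 in edgeR's test, higher in 4 of 5 line pairs). The log2 fold change of NDUFS8 was 0.09 without line pair 2 and 0.25 without line pair 3. NDUFS7 (ENSG00000115286, chromosome 19, 1383527 to 1395589), which holds the last cluster before ubiquinone, was at 24.5, 19.4, 26.0, 26.6 and 24.97 CPM in VENsens and at 24.0, 23.4, 23.0, 26.1 and 31.3 CPM in VENins lines. The groups overlapped throughout, with VENins line 5 high and VENsens line 2 low (log2 fold change 0.07, standard error 0.08, adjusted p = 0.714 in edgeR's test, higher in 2 of 5 line pairs). The log2 fold change of NDUFS7 was 0.024 without line pair 2, 0.13 without line pair 3, 0.0054 without line pair 5 and 0.015 after trends with transcript length and GC content were taken out. An antisense gene covers part of NDUFS7, and this kit does not separate reads by strand.

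The accessory Q members NDUFA5 and NDUFA9, the latter an NADPH-binding protein at the junction with the membrane arm, had log2 fold changes of 0.10 and 0.12. Only NDUFS3 among the 5 had an unadjusted p under 0.05 in edgeR's test (0 of 5 without line pair 2 or line pair 4, and 2 of 5 without line pair 3 or line pair 5), and the median of the module was 0.12. Over both modules, the median log2 fold change was 0.03 for the 6 core members, 3 of them higher. For the 30 accessory members of all modules it was 0.13, and 27 were higher. The core median ran from -0.03 to 0.08 when each line pair was left out in turn, and the accessory median from 0.11 to 0.17. With pseudogene counts added the core median was 0.11, with 4 of 6 higher, and the accessory median 0.13. The difference between both classes was not tested.

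The 9 proximal P members included 7 with a log2 fold change above 0. NDUFC1 (ENSG00000109390, chromosome 4, 139266880 to 139302551), a small subunit that spans the membrane, was at 21.7, 19.6, 24.5, 25.4 and 24.8 CPM in VENsens and at 27.4, 29.3, 26.0, 28.7 and 26.7 CPM in VENins lines. The groups were separate, with VENsens line 4 and VENins line 3 close together (log2 fold change 0.25, standard error 0.08, adjusted p = 0.148 in edgeR's test, higher in 5 of 5 line pairs). MGARP overlaps 18.5% of the exon bases of NDUFC1. NDUFA1 (ENSG00000125356, chromosome X, 119871487 to 119876662), an X-linked subunit with a single membrane span that is needed for an early step of membrane arm assembly, was at 84.0, 76.7, 87.7, 83.6 and 85.3 CPM in VENsens and at 89.7, 111, 98.9, 90.2 and 88.7 CPM in VENins lines. The groups were separate here too, with VENins lines 2 and 3 well above the rest and the other 3 VENins lines close to the highest VENsens line (log2 fold change 0.19, standard error 0.07, adjusted p = 0.185 in edgeR's test, higher in 5 of 5 line pairs). Without line pair 2 the log2 fold change of NDUFA1 was 0.11. 44.5% of the exon bases of NDUFA1 overlap RNF113A on the other strand.

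NDUFA13 (ENSG00000186010, chromosome 19, 19515736 to 19529054), known also as GRIM-19, had the lowest log2 fold change of the proximal part. It was at 4.33, 3.97, 4.30, 3.73 and 4.63 CPM in VENsens and at 4.98, 3.35, 3.46, 4.24 and 4.53 CPM in VENins lines. VENins lines 2 and 3 were the lowest and VENins line 1 the highest of the 10, so that the groups overlapped fully (log2 fold change -0.04, standard error 0.12, adjusted p = 0.922 in edgeR's test, higher in 2 of 5 line pairs). These values rest on 82 to 122 reads per library, and the log2 fold change was 0.011 without line pair 2 and 0.033 without line pair 3. NDUFA10, which has the fold of a nucleoside kinase, ranged only from 87.5 to 92.9 CPM over the 10 libraries, and its log2 fold change was -0.01. NDUFS5 and NDUFA8, proteins of the intermembrane space with paired cysteine motifs, had log2 fold changes of 0.19 and 0.14, and NDUFA3, NDUFA11 and NDUFC2 of 0.16, 0.13 and 0.12. At an unadjusted p under 0.05 in edgeR's test there were 4 of the 9 (1 without line pair 2), all higher, and the median was 0.14.

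All 11 members of the distal P module, the NDUFB genes, had a log2 fold change above 0. NDUFB2 (ENSG00000090266, chromosome 7, 140690777 to 140722790) was at 44.6, 35.9, 45.4, 43.2 and 42.1 CPM in VENsens and at 47.4, 53.6, 50, 50.2 and 47.6 CPM in VENins lines. The groups did not overlap, and VENsens line 2 and VENins line 2 marked both ends (log2 fold change 0.24, standard error 0.07, adjusted p = 0.139 in edgeR's test, higher in 5 of 5 line pairs). BRAF, NDUFB2-AS1 and ADCK2 overlap 35.9% of the exon bases of NDUFB2. NDUFB4 (ENSG00000065518, chromosome 3, 120596309 to 120602500), whose promoter holds NRF1 motifs, was at 72.2, 72.5, 78.7, 76.9 and 76.5 CPM in VENsens and at 83.1, 89.2, 81.9, 84.3 and 86.6 CPM in VENins lines. It was likewise separate in all 10 libraries, without any line far from the others (log2 fold change 0.17, standard error 0.06, adjusted p = 0.156 in edgeR's test, higher in 5 of 5 line pairs). Its processed pseudogene NDUFB4P12, also singled out after its counts were seen, had 0.363 times as many reads as the gene, and with pseudogene counts added the log2 fold change was 0.19.

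NDUFB11 (ENSG00000147123, chromosome X, 47142216 to 47145504), an X-linked subunit, had the lowest log2 fold change of the distal part. It was at 94.4, 79.1, 94.95, 90.9 and 91.6 CPM in VENsens and at 87.9, 95.02, 94.1, 95.4 and 107 CPM in VENins lines. VENins line 1 lay below 4 of the 5 VENsens lines, and the groups overlapped (log2 fold change 0.09, standard error 0.06, adjusted p = 0.519 in edgeR's test, higher in 3 of 5 line pairs). With each line pair left out in turn, the log2 fold change ran from 0.04 to 0.13. Reads where NDUFB11 overlaps RBM10 (44.9% of its exon bases) are not separated by strand. NDUFB3, NDUFB1 and NDUFB8 were close to NDUFB2 in size, with log2 fold changes of 0.24, 0.22 and 0.22. For NDUFB5, NDUFB6, NDUFB7, NDUFB9 and NDUFB10, of which NDUFB9 is another LYR protein and NDUFB7 and NDUFB10 carry paired cysteine motifs, they were 0.13, 0.11, 0.13, 0.12 and 0.12. In this module 6 of 11 had an unadjusted p under 0.05 in edgeR's test (2 without line pair 2), and the median was 0.13.

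NDUFAB1 (ENSG00000004779, chromosome 16, 23581002 to 23596356), the acyl carrier protein of mitochondrial fatty acid synthesis which sits in the enzyme beside NDUFA6 and again beside NDUFB9, was at 56.5, 54.1, 58.7, 58.6 and 59.8 CPM in VENsens and at 62.8, 59.3, 61.8, 62.0 and 68.7 CPM in VENins lines. VENins line 2 was the only VENins line within the VENsens range, whereas the same line was the highest of the 10 for 18 of the 36 members (log2 fold change 0.13, standard error 0.05, adjusted p = 0.264 in edgeR's test, higher in 5 of 5 line pairs).

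Averages over each module were taken of log2 CPM after each member's mean over the 10 libraries was subtracted. For the 11 distal P members the averages were -0.06, -0.21, 0.00, -0.09 and -0.05 in VENsens and 0.03, 0.17, 0.08, 0.05 and 0.08 in VENins lines 1 to 5. They did not overlap, with VENsens line 3 and VENins line 1 nearest to each other. For the 10 N members they were 0.03, -0.14, 0.03, -0.05 and -0.10 in VENsens and 0.06, 0.11, -0.02, 0.05 and 0.02 in VENins lines, and the groups overlapped through VENsens lines 1 and 3 and VENins lines 3 and 5. The 5 Q members gave -0.06 ± 0.13 in VENsens and 0.06 ± 0.05 in VENins lines and the 9 proximal P members -0.06 ± 0.08 and 0.06 ± 0.05 (SD, n = 5 per group), both with overlap. In the main fit, edgeR on all 10 libraries with line number and group, the module medians of the log2 fold change ran from 0.12 to 0.14. When each line pair was left out in turn, they lay between 0.08 (Q) and 0.20 (proximal P). With pseudogene counts added they ran from 0.10 (Q) to 0.16 (N). The difference between modules was not tested. With NDUFA6 and NDUFA7 counted to Q, NDUFA9 to proximal P and NDUFAB1 to distal P the module medians ran from 0.06 (N) to 0.16 (Q). After trends with length and GC content were taken out they were 0.08 for N, 0.11 for Q, 0.13 for proximal P and 0.09 for distal P members.

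**Figure D4:**
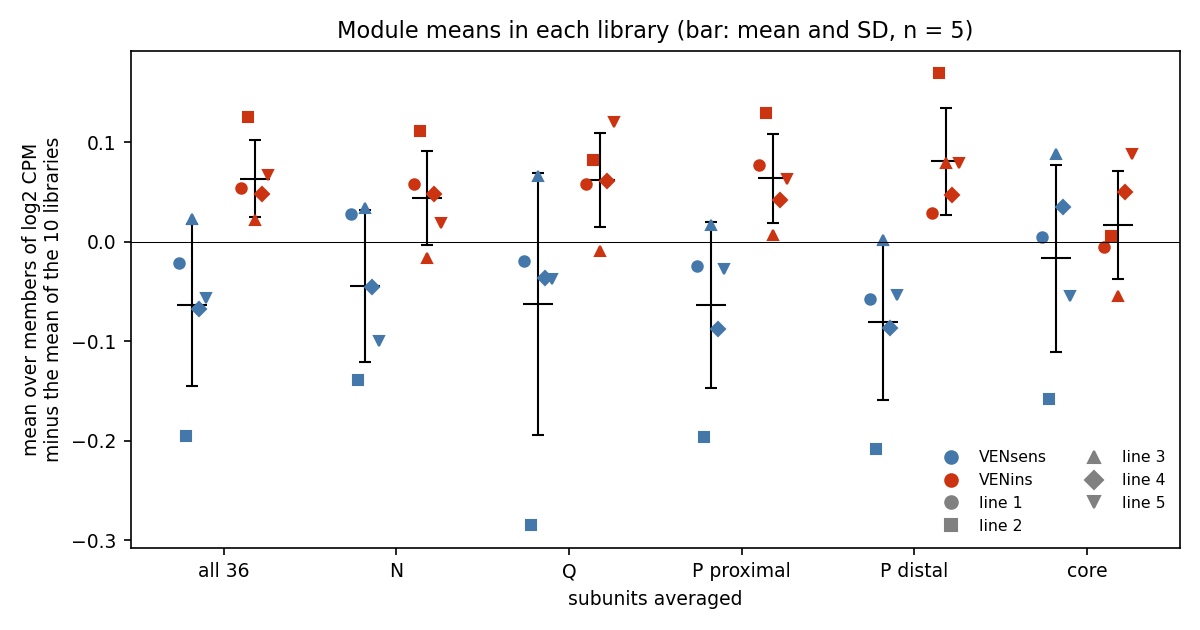
Mean over the members of log2 CPM minus the mean of the 10 libraries, for all 36 members, for each module and for the 6 core members; each symbol is a library, its shape gives the line, and bars are the mean and SD of 5 lines. VENsens line 2 is the lowest point in every column, and the core members overlap over nearly their whole range.

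The members are short genes, and fold changes in these libraries moved with transcript length. The median transcript of a member has 826.5 bases, against 2335 over the 16312 tested genes with a known length. Across those 16312 genes, which are not independent replicates, the median log2 fold change went from 0.08 for transcripts under 750 bases to -0.09 for those of 6000 bases or more. Of the 23 members with a transcript under 1000 bases, 21 were higher in VENins lines with a median of 0.16, where 67.9% of the 3203 tested genes of that length were higher with a median of 0.08. NDUFS1, NDUFV3 and NDUFA10, with long transcripts, were among the 6 members that were not higher, and NDUFA9, also long, was an exception. After trends of the libraries with length and GC content of the transcripts were taken out, 33 of the 36 members were higher, the median log2 fold change was 0.10, and 12 members had an unadjusted p under 0.05 in edgeR's test and were higher, at a share of 10.7% of all tested genes.

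**Figure D5:**
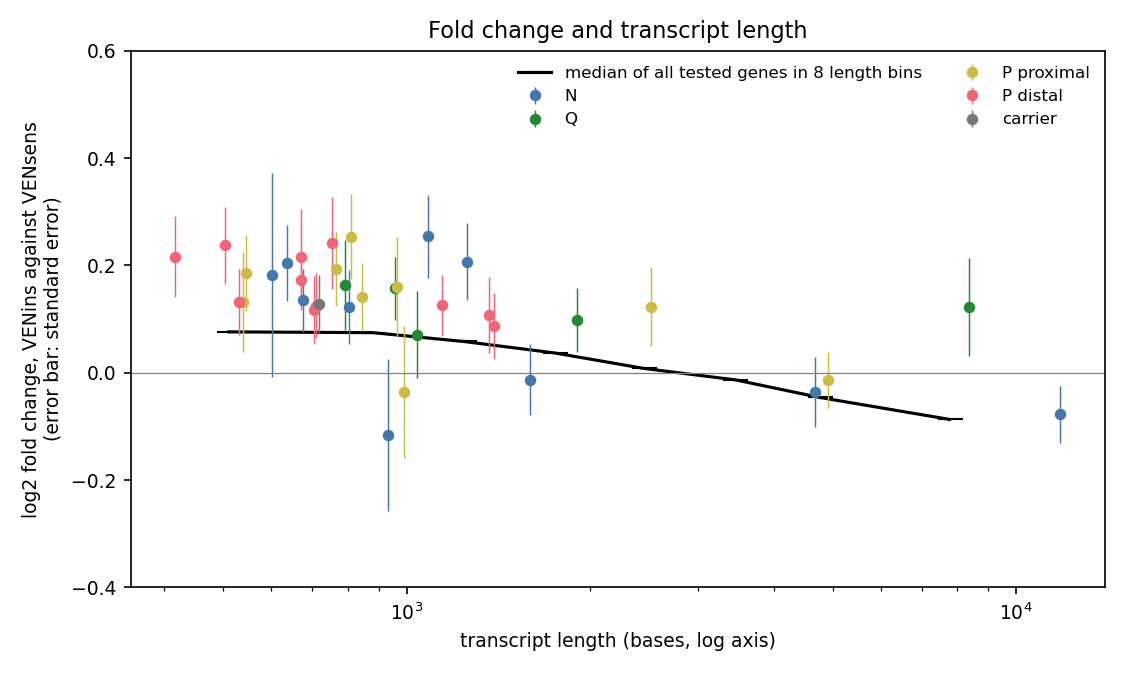
Log2 fold change of each member against transcript length (log axis; bars are the standard error), coloured by module, with the median of all tested genes in 8 length bins as a black line. Most members under 1500 bases lie above the line, which itself falls from 0.08 to -0.09.

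Other genes of the pathway were taken from lists of symbols. The 7 subunits of complex I that mitochondrial DNA encodes were at 0 in every library, as were all 37 genes of that chromosome in the files, so that no value for the core of the membrane arm can be given. Of 19 assembly factors of complex I, 18 had a log2 fold change above 0, with a median of 0.09, and the number was 14 without line pair 2 and 17 with library size alone as the scaling. Of these factors 5 had an unadjusted p under 0.05 in edgeR's test, all higher (2 without line pair 2 and 2 without line pair 4), and 0 an adjusted p under 0.05, where DESeq2 called 0 with and 2 without the line number. TMEM70, a membrane protein needed to build complex I and ATP synthase, was at 64.8, 66.0, 68.7, 69.8 and 69.9 CPM in VENsens and at 75.9, 80.5, 76.2, 75.4 and 74.5 CPM in VENins lines. DMAC1, a factor for the distal part of the membrane arm, was at 55.9, 52.7, 57.7, 56.3 and 54.7 CPM in VENsens and at 59.4, 60.9, 59.6, 64.9 and 64.6 CPM in VENins lines. In both the groups were separate (log2 fold change 0.17, standard error 0.06, adjusted p = 0.155, higher in 5 of 5 line pairs for TMEM70 and log2 fold change 0.16, standard error 0.06, adjusted p = 0.192, higher in 5 of 5 line pairs for DMAC1, in edgeR's test). NUBPL, which helps to insert iron-sulfur clusters, was the single assembly factor that was not higher, at 14.1, 16.6, 17.9, 16.0 and 15.8 CPM in VENsens and at 16.4, 14.3, 16.1, 16.1 and 12.8 CPM in VENins lines. Its groups overlapped, with VENins line 5 the lowest (log2 fold change -0.09, standard error 0.08, adjusted p = 0.650 in edgeR's test, higher in 2 of 5 line pairs).

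Nuclear subunits of the other respiratory complexes are given for scale. Of 39 such genes, 38 had a log2 fold change above 0, 26 of them at an unadjusted p under 0.05 in edgeR's test (12 without line pair 2 and 17 without line pair 4), and the median was 0.14. At an adjusted p under 0.05 edgeR called 0 of the 39, DESeq2 called 2 with and 13 without the line number, and edgeR with no filter on low counts called 9. The medians were 0.11 for 4 genes of complex II, 0.14 for 9 of complex III, 0.17 for 11 of complex IV and 0.14 for 15 of complex V, beside 0.13 for complex I. The difference between the complexes was not tested.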

How the data were processed

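Poly(A) RNA of 5 VENsens and 5 VENins lines was sequenced as single reads of 75 bases, per the study's methods, after a library kit that does not mark strand. Per the submitters' notes the reads were processed with bcl2fastq 2.20.0.422, Bowtie2 2.3.5.1, SAMtools 1.9 and HTSeq 0.9.1 on hg19 (GRCh37), and the authors deposited raw counts per Ensembl gene, without normalization, with 5 summary lines. Bowtie2 does not split reads over introns; a read that spans an exon junction can fit a processed pseudogene better than its gene. Between 52.7% and 54.2% of reads were counted on genes and 24.6% to 26.2% were set aside for low alignment quality.

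Names, positions and transcript lengths came from GENCODE 29 (GRCh38), which covered 52526 of 63677 identifiers; the rest carried 0.907% of counts. Genes were kept by filterByExpr (minimum count 10, minimum total 15), scaled by TMM and tested with edgeR 4.0.16 (quasi-likelihood F test, R 4.3.3) on line number and group, since the study's methods describe a paired analysis, with Benjamini-Hochberg adjustment over all tested genes at 0.05. The counts do not show that lines of the same number belong together. Log2 CPM used a prior count of 2. The steps were tested on simulated counts. Lines of one group differed beyond counting error (chi-square over degrees of freedom 1.93 to 14.25).

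Named members are the core members, in each module the 2 with the smallest unadjusted p and the one with the lowest log2 fold change, and NDUFAB1; assembly factors were chosen alike. Members, lists and modules were chosen with earlier results of these data known. Alternatives were no replicate block, DESeq2 1.42.0 with and without the line number, RLE factors, library size alone, other filters, each line pair left out, removal of trends on transcript length and GC content (natural splines, 4 degrees of freedom), pseudogene counts added and another module assignment. A further gene of the complex is not reported here. Plots used Python 3.11.15 and matplotlib 3.10.9.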

Additional observations from a re-analysis of the deposited data

Results flagged for a closer look

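In each group of 5 lines, the line farthest from the others was compared with the spread of the rest by Dixon's criterion, for the 36 members, 3 assembly factors and 6 averages over members, 90 groups in all. In 6 of them the gap exceeded 0.71 of the range, where chance gives about 1 in 20 groups, or 4.5. VENsens line 2 was the low line for NDUFA11 (20.2 CPM, next line 28.8), NDUFB10 (68.6 CPM, next 78.2) and NDUFB11 (79.1 CPM, next 90.9). VENins line 2 was the high line for NDUFC2 (38.0 CPM, next 32.2) and for the assembly factor TMEM70 (80.5 CPM, next 76.2). VENsens line 1 was the high line for NDUFA7 (1.58 CPM, next 0.969), a gene with 20 to 38 reads per library. Of the 6, 5 thus belong to lines numbered 2, the lowest (VENsens) of all 10 libraries for 21 and the highest (VENins) for 18 of the 36 members. The cause was not tested.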

How the results depend on the processing

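Under every alternative tried, between 30 and 33 of the 36 members were higher in VENins lines, with a median log2 fold change from 0.10 to 0.17. No member was called at an adjusted p under 0.05 except 6 in DESeq2 with no replicate block (NDUFB4, NDUFB2, NDUFS6, NDUFC1, NDUFA12 and NDUFA6) and 3 in edgeR with no filter on low counts (NDUFS6, NDUFB3 and NDUFB2). Among the genes described with all their values, these 2 settings and the removal of length and GC trends with no replicate block gave 10 gains of a call, including TMEM70 and DMAC1. Of the 39 genes of complexes II to V, 9 were called with no filter on low counts. The cause was not tested.

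The number of all genes called moved from 33 to 149 with no replicate block, 217 with DESeq2 and the line number, 739 with DESeq2 and no replicate block, 664 with no filter on low counts, 122 with the length and GC trends removed and 358 with this and no replicate block. Lines of the same number did not deviate together (correlations of their deviations from the group means between -0.10 and 0.03), and no line correlated best with the line of its own number, so the numbers are not shown to pair the lines. Without the block, 17 members had an unadjusted p under 0.05 in edgeR's test and were higher, against 16 with it. The shares of all tested genes were 9.22% without and 7.79% with it.

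When each line pair was left out in turn, the count of all genes called ran from 6 to 331, that of members with an unadjusted p under 0.05 from 5 to 16, that of members without overlap from 7 to 11 (6 with all lines, 4 with library size alone), that of assembly factors with an unadjusted p under 0.05 from 2 to 6, and that of complex II to V genes from 12 to 22. Of all tested genes, 3.98% to 8.04% were then higher at an unadjusted p under 0.05 in edgeR's test, and 7.79% with all lines. The share of all tested genes higher without overlap was 3.26% to 5.54% with a pair left out. It was 2.36% with all lines and 1.99% with library size alone, so these counts of members are not alike in background. Without pair 2 the counts of called genes and of small unadjusted p were the lowest, for assembly factors also without pair 4, whereas members without overlap were fewest without pairs 1 and 4. The cause was not tested.

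For the log2 fold changes of those genes and the counts of small unadjusted p by module or class, 329 values under an alternative kept their direction and side of the threshold or stayed within 1.5 times, 10 gained a call, 14 counts by module or class moved further and 7 log2 fold changes changed sign. The median of the 6 core members was also below 0 without pair 2 (-0.012) and without pair 5 (-0.026). The log2 fold change of NDUFV1 was 0.052 without pair 1 and 0.018 without pair 3 (-0.065 to 0.052 over the 5 left out in turn), and that of NDUFA13 0.011 without pair 2 and 0.033 without pair 3 (-0.098 to 0.033). NDUFS1 was at 0.0188 with the length and GC trends removed and at 0.0172 with this and no replicate block, and NDUFV2 at 0.21 with pseudogene counts added. With each pair left out in turn, the log2 fold change of NDUFS6 ran from 0.17 to 0.33 and that of NDUFB2 from 0.15 to 0.28. That of NDUFV2 ran from -0.15 to -0.03 and that of NUBPL from -0.16 to -0.04. The cause was not tested. The other assignment of 4 members to modules gave module medians of 0.06 for N, 0.16 for Q, 0.14 for proximal P and 0.13 for distal P members.

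The depth limits NDUFV2, NDUFA7 and NDUFA13, which had 20 to 122 reads per library. All values describe lines of 1 cell line after washout of VEN, at the level of transcripts; protein, assembly and activity of complex I were not measured here. Reads shared with pseudogenes, overlapping genes and antisense genes could not be separated. For 19 members over 10% of the transcript was similar to another gene. Over 10% of the exon bases overlapped another gene for 18 members, many of them the same. NDUFV1, NDUFS3 and NDUFC1 had such overlap without such similarity. Core and accessory classes hold 6 and 30 members, and differences between modules were not tested.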
